A study of Mus musculus with 6 samples.

Results

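The S100 calcium-binding proteins of RAW264.7 cells are described here by the 8 genes S100a1, S100a4, S100a6, S100a8, S100a9, S100a10, S100a11 and S100a13. They were chosen by gene symbol, not by a measured value, from the 50599 genes of the deposited table, which lists 10 further S100 rows. RAW264.7 is a mouse macrophage line. All 6 cultures carried ∆Raf-1:ER, an oncoprotein fused to the oestrogen receptor and delivered by retrovirus, and all had been selected with 70 µg/mL hygromycin B for 7 days. The 3 control samples received ethanol vehicle (0 nM 4-OHT) and the other 3 received 100 nM 4-hydroxytamoxifen (4-OHT), which switches the fusion protein on. Values of single libraries are given in the order of replicates A, B and C. RNA was taken on day 3, after 24 hours without serum, and the cells given 4-OHT are described as senescent in the design. The labels do not say whether the selected cells were 1 clone, nor whether the replicates A, B and C were separate cultures, so the spread behind each p-value may be technical and covers only these samples. No cells lacking the construct are among the samples, so the drug and the oncoprotein cannot be told apart.

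S100 proteins are small proteins built around a pair of EF-hand loops that bind calcium. Most work as dimers that open on calcium binding and then grip a partner such as an annexin, a myosin heavy chain or a receptor. Several are secreted without a signal peptide and act on immune cells from outside, and S100A8 with S100A9 forms calprotectin, a major protein of neutrophils and monocytes. In the mouse most of the family lies in a cluster on chromosome 3.

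The stretches of chromosome 3 just before the start of the genes that changed most firmly are shown first, since S100 genes of the same cluster moved in different directions. They are RefSeq sequence of build GRCm38.p6, from a table in which 7 of the 8 genes matched, all but S100a10. They stop where any annotated exon begins. Capitals mark a match to a searched motif.
S100a6: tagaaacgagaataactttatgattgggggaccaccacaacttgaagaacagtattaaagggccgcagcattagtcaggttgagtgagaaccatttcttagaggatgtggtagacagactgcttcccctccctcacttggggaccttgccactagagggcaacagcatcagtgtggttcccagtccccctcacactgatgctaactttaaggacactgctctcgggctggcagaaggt
S100a4: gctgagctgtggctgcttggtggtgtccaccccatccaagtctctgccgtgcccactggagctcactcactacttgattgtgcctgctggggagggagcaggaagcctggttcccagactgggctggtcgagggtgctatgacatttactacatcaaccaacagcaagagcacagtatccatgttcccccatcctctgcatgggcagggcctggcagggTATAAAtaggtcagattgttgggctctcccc
S100a11: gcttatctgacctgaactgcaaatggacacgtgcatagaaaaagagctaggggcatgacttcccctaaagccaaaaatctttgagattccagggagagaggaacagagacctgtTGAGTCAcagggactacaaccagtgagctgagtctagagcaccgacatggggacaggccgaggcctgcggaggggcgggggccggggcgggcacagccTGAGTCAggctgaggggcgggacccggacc
Gap between S100a1 and S100a13: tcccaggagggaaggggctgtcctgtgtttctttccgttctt

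The S100a6 stretch is chr3:90612644-90612881, that of S100a4 chr3:90603520-90603769 and that of S100a11 chr3:93520246-93520487, all on the plus strand. The gap is the 42 bases, chr3:90514393-90514434 on the plus strand, that part the starts of S100a1 and S100a13. These 2 genes are transcribed away from each other. Both strands were searched for AP-1 (TGANTCA), C/EBP (TTGCNNAA), ETS (CCGGAAG), NF-kB, the interferon response element and the TATA box (TATAAA). The S100a11 stretch held 2 AP-1 matches, both TGAGTCA. At the same positions, 6.64% of the 32851 mouse promoter windows held at least 1 such match and 0.32% held 2 or more. Every motif was searched in all 7 stretches, and these shares are not corrected for the number of searches. The S100a4 stretch held a TATA box, as did 12.4% of windows, and no motif was matched before S100a6, S100a8 or S100a1 or in the gap, while S100a9 had a C/EBP match, as did 9.56% of windows. The S100a8 and S100a1 stretches, which are not printed, had only 157 and 115 bases. They left out the 93 and 135 bases nearest the RefSeq start, and the S100a1 stretch lies within S100a13. At their positions 4.24% and 2.93% of windows held an AP-1 match, and at those of the gap 0.886%. The lack of matches there is therefore not comparable with that in the longer stretches. A match describes the letters only.

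Of the 8 genes, 7 had enough reads to be tested and S100a9 was listed at 0 in all 6 libraries. With 4-OHT, S100a6, S100a11, S100a10, S100a13 and S100a8 rose, S100a4 fell, and S100a1 was not called. In the test used (limma on log2 of the normalized count plus 1, with Benjamini-Hochberg adjustment at 0.05 over 11828 genes), 65.5% of all tested genes were called, 33.0% higher and 32.5% lower, so the 6 called S100 genes do not by themselves set the family apart. The groups did not overlap in any of the 7, as in 70.7% of tested genes. The median log2 change of the 7 was 0.59, against -0.02 over all tested genes. S100a8 passed the filter on low counts only through its reads with 4-OHT, so these counts and this median describe the genes and support nothing further. Normalized counts are reads divided by a size factor for each library, which did not follow its total reads. After this division the library totals were 11332900 to 11691800 in vehicle and 13752100 to 14506000 with 4-OHT. In these bulk samples a change in the share of cells that express a gene and a change in RNA per cell cannot be told apart.

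**Figure D1:**
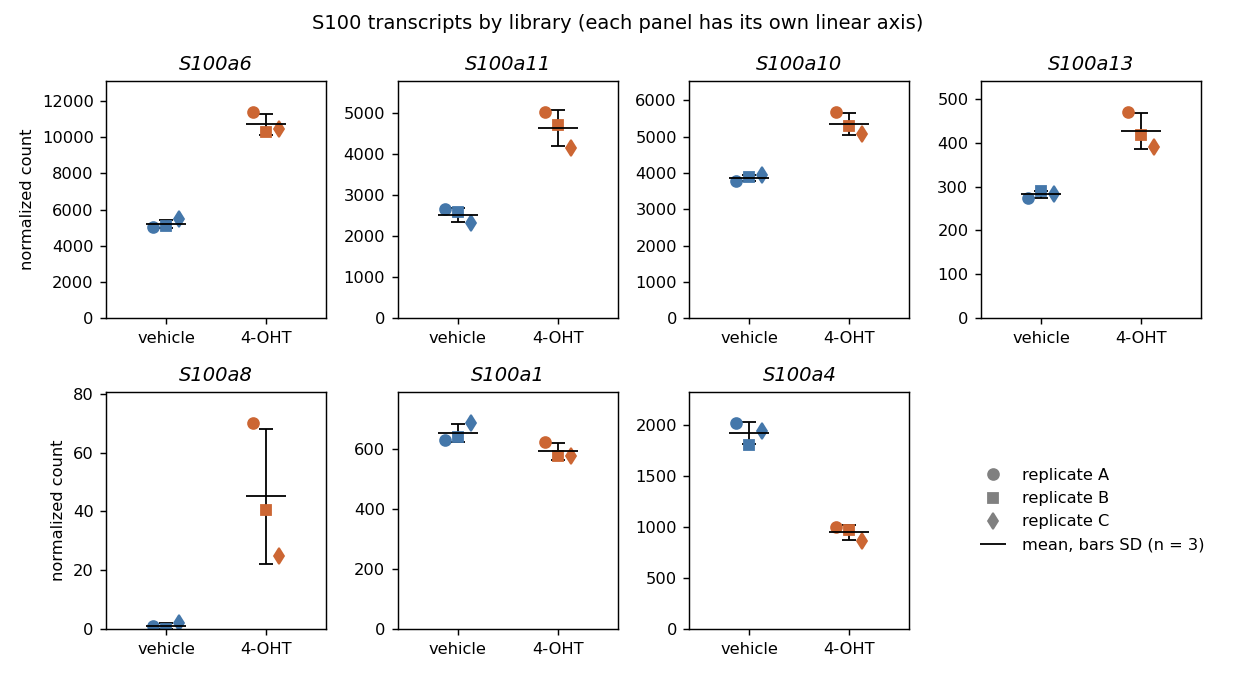
Normalized counts of 7 S100 genes in each library, on linear axes that start at 0 and differ between panels. Symbols are replicates, and the black line and bars are the mean and SD of 3 libraries. The 4-OHT libraries lie above the vehicle libraries for S100a6, S100a11, S100a10, S100a13 and S100a8, and below them for S100a4 and, narrowly, S100a1.

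Scaling bears on the small changes. Dividing by the total reads of each library in place of the deposited size factors moved the median log2 change of all tested genes from -0.02 to -0.32, and then 19.1% of genes were higher and 55.4% lower. Under that scaling the same 5 S100 genes were higher and both S100a4 and S100a1 were lower. The share of all recovered reads that came from the 8 genes does not depend on size factors. It was 0.1269%, 0.1225% and 0.1273% in vehicle, and 0.1765%, 0.1545% and 0.1483% with 4-OHT. S100a6 alone gave 17898 of the 49533 vehicle reads and 28689 of the 60832 reads with 4-OHT, so the share does not speak for every gene. The exact binomial 95% interval of the highest vehicle share, 0.1255% to 0.129%, lies below that of the lowest 4-OHT share, 0.1462% to 0.1504%. These intervals cover counting error only.

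S100a6 (calcyclin; ENSMUSG00000001025.8, chr3:90612882-90624181) contributed the most reads of the family. Its normalized counts were 5027, 5109 and 5460 in vehicle, and 11400, 10279 and 10443 with 4-OHT. Every 4-OHT library was well above every vehicle library. The mean rose 2.06-fold, from 5198 ± 230 to 10707 ± 605 (SD, n = 3 per group), a log2 change of 1.04 ± 0.06 (SE; limma adjusted p = 4.94e-08), or 0.74 under total-count scaling. A larger log2 change was found in 9.83% of tested genes.

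S100a11 (calgizzarin, a partner of annexin A1; ENSMUSG00000027907.4, chr3:93520488-93526287) carries the AP-1 letters shown above. Its normalized counts were 2654, 2585 and 2320 in vehicle, and 5027, 4718 and 4152 with 4-OHT. Within each group replicate C was the lowest, and the groups stayed apart. The mean rose 1.84-fold, from 2520 ± 176 to 4632 ± 444, a log2 change of 0.88 ± 0.07 (SE; limma adjusted p = 1.32e-06), or 0.57 under total-count scaling. Its processed pseudogene, S100a11-ps on chromosome 12, was listed at 0, and how reads that fit both were assigned is not given in the sources used here.

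S100a10 (p11; ENSMUSG00000041959.14, chr3:93555080-93564643) has lost calcium binding and forms a fixed tetramer with annexin A2 that holds plasminogen at the cell surface. Its normalized counts were 3781, 3899 and 3939 in vehicle, and 5681, 5303 and 5066 with 4-OHT. The vehicle libraries were close together and all below the lowest 4-OHT library. The mean rose 1.38-fold, a log2 change of 0.46 ± 0.05 (SE; limma adjusted p = 1.72e-05). Under total-count scaling the log2 change was only 0.16, with limma adjusted p = 0.0453, the highest of its alternatives, of which the lowest was 3.34e-12 by DESeq2.

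S100a13 (ENSMUSG00000042312.9, chr3:90514435-90524581) helps fibroblast growth factor 1 and interleukin-1 alpha to leave the cell without a signal peptide. Its normalized counts were 273, 290 and 283 in vehicle, and 470, 418 and 391 with 4-OHT. The 4-OHT libraries were more spread than the vehicle libraries, without overlap. The mean rose 1.51-fold, a log2 change of 0.59 ± 0.08 (SE; limma adjusted p = 5.72e-05). Under total-count scaling the log2 change was 0.29 (limma adjusted p = 0.00875, between 1.42e-07 and 0.00875 over all alternatives).

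S100a1 (ENSMUSG00000044080.9, chr3:90511034-90514392), known in heart muscle for its binding to the calcium pump and release channel, starts 42 bases from S100a13 on the other strand. Its normalized counts were 631, 638 and 687 in vehicle, and 624, 577 and 575 with 4-OHT. The highest 4-OHT library came within a few counts of the lowest vehicle library. The log2 change of -0.14 ± 0.06 (SE) was not called (limma adjusted p = 0.0682). It was called lower under total-count scaling, at -0.44 (limma adjusted p = 2.6e-05), and without 4-OHT replicate A, at -0.18 (0.0219), and its adjusted p lay between 2.6e-05 and 0.229 over all alternatives.

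S100a4 (metastasin, which binds non-muscle myosin heavy chain; ENSMUSG00000001020.8, chr3:90603771-90606045) was the S100 gene that fell. Its normalized counts were 2020, 1802 and 1934 in vehicle, and 1001, 970 and 863 with 4-OHT. The lowest vehicle library was still far above the highest 4-OHT library. The mean of 1919 ± 110 in vehicle dropped to 945 ± 72.8, or 0.492 times as much, a log2 change of -1.02 ± 0.07 (SE; limma adjusted p = 1.43e-07), or -1.33 under total-count scaling. A more negative log2 change was found in 2.71% of tested genes. The gene model Gm42674 overlaps S100a4 and was listed at 0.

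S100a8 (ENSMUSG00000056054.9, chr3:90668978-90670035), a calprotectin subunit, was nearly unread in vehicle. It had 1, 0 and 3 reads in vehicle, and 62, 37 and 22 reads with 4-OHT. All 4-OHT libraries held more reads than any vehicle library, but they differed among themselves far more than those of the other S100 genes. Normalized counts went from 1.05 ± 1.08 to 45.2 ± 23.02, a log2 change of 4.53 ± 0.49 (SE; limma adjusted p = 9.65e-06), which the added count of 1 understates. The ratio of summed reads, scaled by the size factors, was 38.6 with an exact binomial 95% interval of 14.7 to 144. The interval covers counting error only and not the spread between the 4-OHT libraries. The ratio of means was 43.2, or 92.7 without vehicle replicate C and 28.8 without vehicle replicate B. Even with 4-OHT, S100a8 stayed far below S100a6.

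S100a9 (ENSMUSG00000056071.12, chr3:90692632-90695721), the other calprotectin subunit, was listed at 0 in every library. Of the 13 mitochondrially encoded protein genes, which every cell uses, 6 were also listed at 0, so only the listing itself is given, and the pairing of S100a8 with S100a9 cannot be read from it. Neutrophils are the best known source of both transcripts. Of 14 neutrophil markers, 5 (Ctsg, Camp, Ngp, Ly6g and Retnlg) were listed at 0. The summed normalized count of the 14 was 82.1 to 112 in vehicle libraries and 91.7 to 144 in 4-OHT libraries, so the groups overlapped. Most of it came from Cebpe, which was higher (log2 change 0.66, limma adjusted p = 0.00817, not called under total-count scaling at 0.0702), and from Csf3r, which was lower (-0.76, limma adjusted p = 0.0138). Mpo, myeloperoxidase, named after its values were seen, had 2 reads over the vehicle libraries and 12 over the 4-OHT libraries. The remaining markers did not share a rise of that size. Lcn2 had 7 and 16 reads, Mmp8 3 and 5, Cxcr2 3 and 4, Elane 0 and 1, and Prtn3 and Ltf each 1 and 0. The part of these genes in the rise of S100a8 was not tested.

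**Figure D2:**
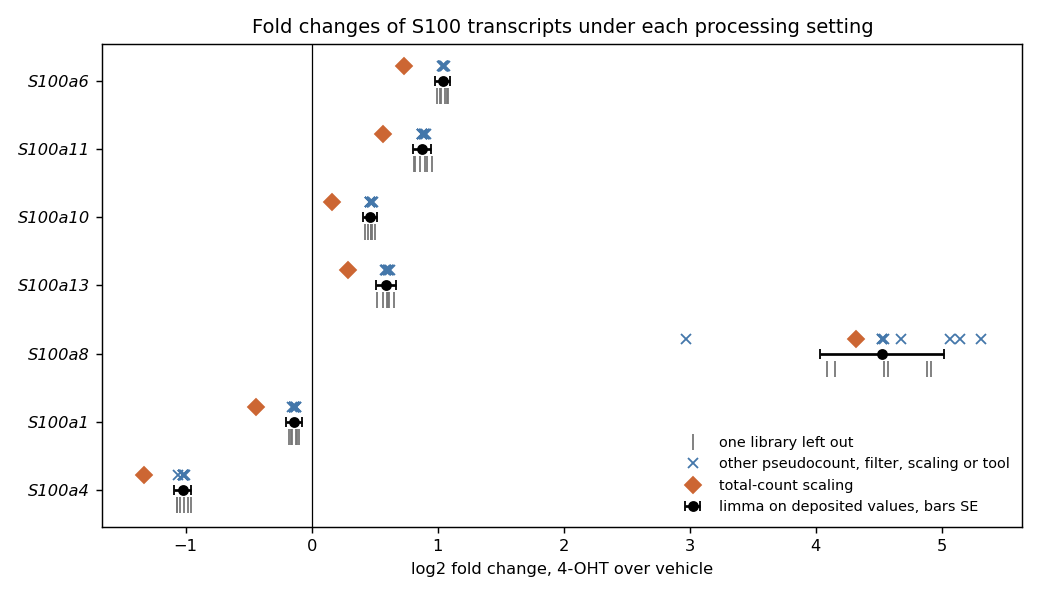
Log2 fold change of 4-OHT over vehicle for 7 S100 genes (horizontal axis, linear) under each setting. Black points with SE bars are limma on the deposited values, grey ticks leave out a single library, blue crosses change the pseudocount, filter, scaling or tool, and orange diamonds divide by total reads. On this axis S100a8 moved most, between 2.97 and 5.31. S100a10 lay between 0.16 and 0.50 and S100a1 between -0.44 and -0.10, which is wide for changes of their size. No gene changed sign.

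To compare levels between the genes, normalized counts were divided by the length of the longest coding transcript in kilobases (GENCODE M21). In vehicle S100a6 was the highest, at 7111 ± 315 per kb, followed by S100a10 (5654 ± 120 per kb), S100a11 (4931 ± 345 per kb) and S100a4 (3853 ± 221 per kb). S100a1 (963 ± 45.3 per kb) and S100a13 (394 ± 11.9 per kb) were lower, and S100a8 was at 2.15 ± 2.23 per kb. Neighbours in this order lay apart by more than their SDs. With 4-OHT the order was S100a6 (14648 ± 828 per kb), S100a11 (9065 ± 869 per kb), S100a10 (7810 ± 452 per kb), S100a4 (1897 ± 146 per kb), S100a1 (874 ± 41.3 per kb), S100a13 (596 ± 56.1 per kb) and S100a8 (93 ± 47.4 per kb). S100a11 and S100a10 were separated by less than the sum of their SDs. Counted over all annotated exons, which lengthens S100a6 and S100a10 most, S100a11 came first in both groups, at 4931 per kb and 9065 per kb against 3803 per kb and 7833 per kb for S100a6.

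Ratios of normalized counts between genes of the same library do not depend on how libraries are scaled, so they describe the relative change of a pair. In each of the 6 ratios computed the groups did not overlap, as in 70.7% of single tested genes. The pairs were chosen with earlier results known, and some join genes already called in opposite directions, so this only describes them. Each ratio had an exact two-sided permutation p = 0.1, the smallest that 3 against 3 allows, and 0.1 after Benjamini-Hochberg adjustment. The ratio of S100a6 to S100a4, whose genes lie 6.8 kb apart, was 2.49, 2.83 and 2.82 in vehicle, and 11.4, 10.6 and 12.1 with 4-OHT. The log2 difference was 2.07, and S100a5, which was not tested, lies between the pair. The ratio of S100a13 to S100a1 was 0.433 ± 0.0209 in vehicle and 0.72 ± 0.0367 with 4-OHT (SD, n = 3 per group), a log2 difference of 0.73 between genes that start 42 bases apart. The ratio of S100a11 to S100a10, a pair 28.8 kb apart, went from 0.651 ± 0.0574 to 0.865 ± 0.0392, a log2 difference of 0.41.

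The main cluster runs from S100a1 to S100a9 over 184.7 kb, and S100a11 and S100a10 lie 2825 kb further on. Within the cluster S100a6 rose and S100a4 fell, with S100a5, which had 1 read in all, between them. Of 21 other genes of the table that lie in the cluster or within 200 kb of it, 7 were tested, of which limma called 0 higher and 2 lower, with 5 not called, and 0 were higher at an unadjusted p under 0.05, by edgeR or by DESeq2. For all tested genes the shares were 33.0% higher and 32.5% lower. Ilf2, a subunit of an RNA-binding complex, changed by -0.38 ± 0.06 (SE; limma adjusted p = 0.000134). Snapin, a protein of vesicle fusion, changed by -0.27 ± 0.05 (SE; limma adjusted p = 0.00113).

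**Figure D3:**
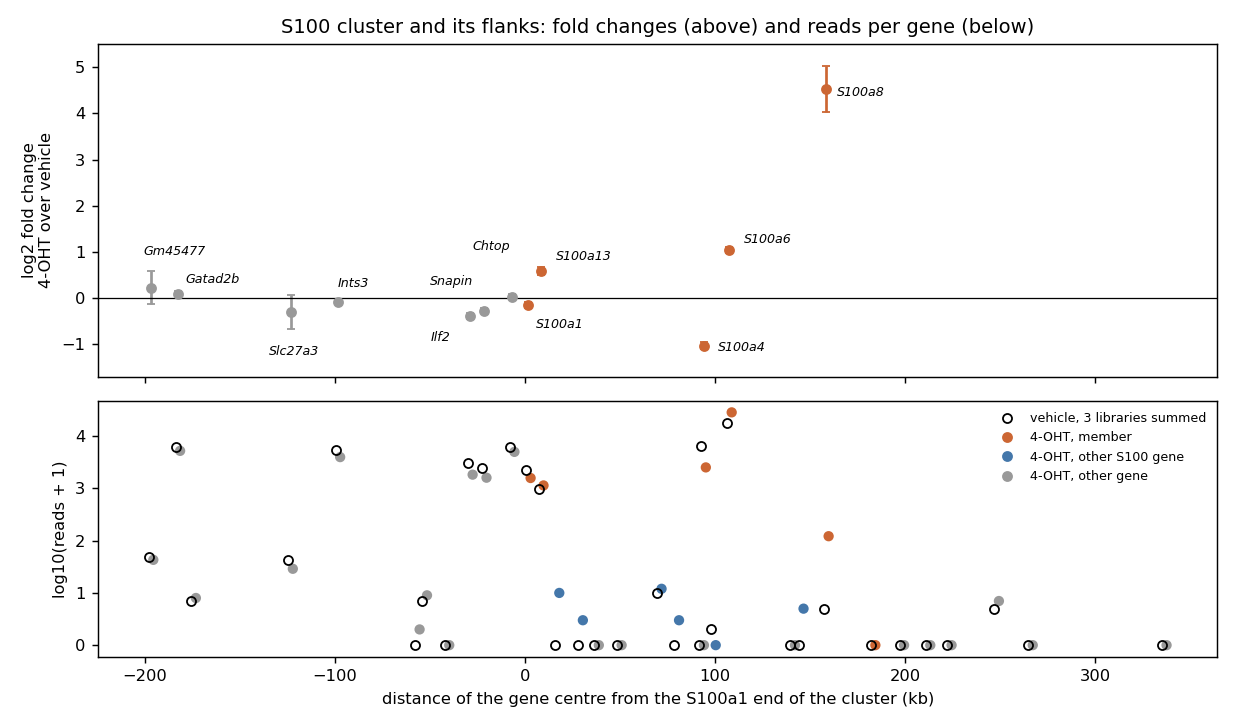
Above, log2 fold change of 4-OHT over vehicle with SE for the tested genes in and around the S100 cluster, against distance in kb from its S100a1 end. Below, log10 of reads plus 1 per gene, summed over 3 libraries per group, for all genes of the window (open circles vehicle, filled circles 4-OHT). S100a6 and S100a4 have opposite signs, and the flanking genes lie between -0.38 and 0.23.

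The 10 other S100 rows of the table, 9 genes and 1 pseudogene, had too few reads to be tested. Together they had 11 reads in vehicle and 29 with 4-OHT. S100a14 had 0 vehicle reads and 4, 4 and 1 reads with 4-OHT. Setting vehicle to 3 reads in all gives a ratio of 3.83, which makes no allowance for counting error in the 4-OHT reads. In the authors' deposited table the adjusted p of S100a14 is 0.0336, while the gene was not tested here. S100a3 had 9 and 11 reads, S100a7a 0 and 4, S100a2 0 and 2, and S100a16 0 and 2 in vehicle and 4-OHT. S100b had 1 read in each group and S100a5 a single vehicle read. S100g, S100z and S100a11-ps were listed at 0. S100a2 and S100a3 overlap on the chromosome, so their few reads are uncertain.

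The annexins are calcium-dependent membrane binders, and several are docking partners of S100 dimers. Of 12 annexins, 9 were tested, of which 4 were higher, 4 lower and 1 not called, or 2 higher and 5 lower when total reads set the scale. Their median log2 change was 0.08. Among all tested genes 33.0% were higher and 32.5% lower, or 19.1% and 55.4% when total reads set the scale. Anxa2, the partner of S100a10 and also of S100a4, had normalized counts of 8367, 8479 and 8617 in vehicle and 13407, 12718 and 12302 with 4-OHT. It rose 1.51-fold (log2 change 0.59 ± 0.06 SE, limma adjusted p = 2.98e-06), or by 0.29 on the log2 scale under total-count scaling. S100a10 and Anxa2 therefore rose together, and their ratio moved little, from 0.456 ± 0.00401 to 0.418 ± 0.00596 (SD, n = 3 per group), a log2 difference of -0.13. Anxa1, the partner of S100a11, instead fell to 0.744 times its vehicle level (log2 change -0.43 ± 0.07 SE, limma adjusted p = 0.000313). The ratio of S100a11 to Anxa1 accordingly went from 0.403 ± 0.0541 to 1.00 ± 0.18. Anxa11, which binds S100a6, changed by 0.44 ± 0.09 (SE; limma adjusted p = 0.00152), but by 0.14 under total-count scaling, where it was not called (limma adjusted p = 0.209, the highest of its alternatives, the lowest being 0.000103). Anxa3 had the largest log2 change of the tested annexins, 0.75 ± 0.11, and Anxa9 the smallest, -0.51 ± 0.13 (SE).

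Of 13 intracellular partners and clients, 9 were tested, of which 5 were higher, 3 lower and 1 not called, with a median of 0.31. With total reads as the scale these were 4 and 4. The shares over all tested genes were 33.0% higher and 32.5% lower, or 19.1% and 55.4% with total reads as the scale. Fgf1, counted among the 5 higher, passed the filter on low counts only through its reads with 4-OHT. The counts and the median of the partners therefore only describe this list. Cacybp, the calcyclin-binding protein that joins S100a6 to a ubiquitin ligase, had normalized counts of 1353, 1300 and 1455 in vehicle and 945, 868 and 925 with 4-OHT. It fell to 0.667 times its vehicle level (log2 change -0.58 ± 0.06 SE, limma adjusted p = 5.16e-06) while S100a6 rose, and the ratio of S100a6 to Cacybp went from 3.8 ± 0.116 to 11.7 ± 0.398. Sugt1, a co-chaperone bound by S100a6, rose 1.43-fold (log2 change 0.51 ± 0.06 SE, limma adjusted p = 2.38e-05). Myh9, the heavy chain of non-muscle myosin IIA and the classical S100a4 target, rose 1.58-fold as S100a4 fell (log2 change 0.66 ± 0.05 SE, limma adjusted p = 1.01e-06). Ahnak, the giant scaffold that docks on S100a10 and annexin A2, was not called at 0.02 ± 0.08 (SE; limma adjusted p = 0.836), but was lower, at -0.29, under total-count scaling (limma adjusted p = 0.00854, between 0.00854 and 0.962 over all alternatives).

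Fgf1, the growth factor whose release S100a13 assists, went from 0 reads in all 3 vehicle libraries to 73, 68 and 40 reads with 4-OHT. Setting vehicle to 3 reads in all gives a ratio of 77.1, which makes no allowance for counting error in the 4-OHT reads. The log2 change was the largest of the tested partners (limma adjusted p = 6.15e-08). Fgf1 passed the filter on low counts only through its reads with 4-OHT. Il1a, the other cargo, had 2 vehicle reads and 3 reads with 4-OHT, and Syt1, which joins the FGF1 release complex, was listed at 0. For S100a1, Atp2a2 (the calcium pump SERCA2) changed by 0.31 ± 0.06 (SE; limma adjusted p = 0.00133), but by 0.00 under total-count scaling (limma adjusted p = 0.998, the highest of its alternatives, the lowest being 3.7e-06), and Ryr2 had 1 read in each group.

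Of 11 receptors and co-receptors of secreted S100 proteins, 8 were tested, of which 5 were higher, 0 lower and 3 not called, with a median of 0.40. By limma 1 was lower at an unadjusted p under 0.05, and edgeR and DESeq2 called 0 lower. Total-count scaling left 2 higher and made 3 lower. Over all tested genes 33.0% were higher and 32.5% lower, or 19.1% and 55.4% under total-count scaling. Whether the receptors differ from these shares was not tested. Alcam, an adhesion molecule that can bind S100 proteins, had the largest log2 change, 2.07 ± 0.09 (SE; limma adjusted p = 5.19e-09), with normalized counts of 8940 to 9572 in vehicle and 33136 to 41306 with 4-OHT. Ager, which encodes RAGE, the receptor best known for S100 ligands, had 4 vehicle reads and 12 reads with 4-OHT and was not tested. Tlr4, through which S100a8 and S100a9 signal, had the smallest log2 change, -0.21 ± 0.09, with overlapping groups (limma adjusted p = 0.0578). It was called lower under total-count scaling, at -0.51, with a block for the replicate letter, at -0.21, and without vehicle replicate B or 4-OHT replicate C, at -0.26 and -0.30, with an adjusted p between 6.26e-06 and 0.232 over all alternatives. Cd36, which binds S100 complexes on phagocytes, was not called at 0.07 ± 0.08 (SE; limma adjusted p = 0.502), and was lower, at -0.24, under total-count scaling and higher, at 0.17, without 4-OHT replicate A. Bsg (CD147), a receptor of S100a9, changed by 0.36 ± 0.09 (SE; limma adjusted p = 0.00418), or by 0.06 and not called under total-count scaling (limma adjusted p = 0.499, between 4.4e-07 and 0.499 over all alternatives). Cd69 had 1 and 5 reads and was not tested.

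**Figure D4:**
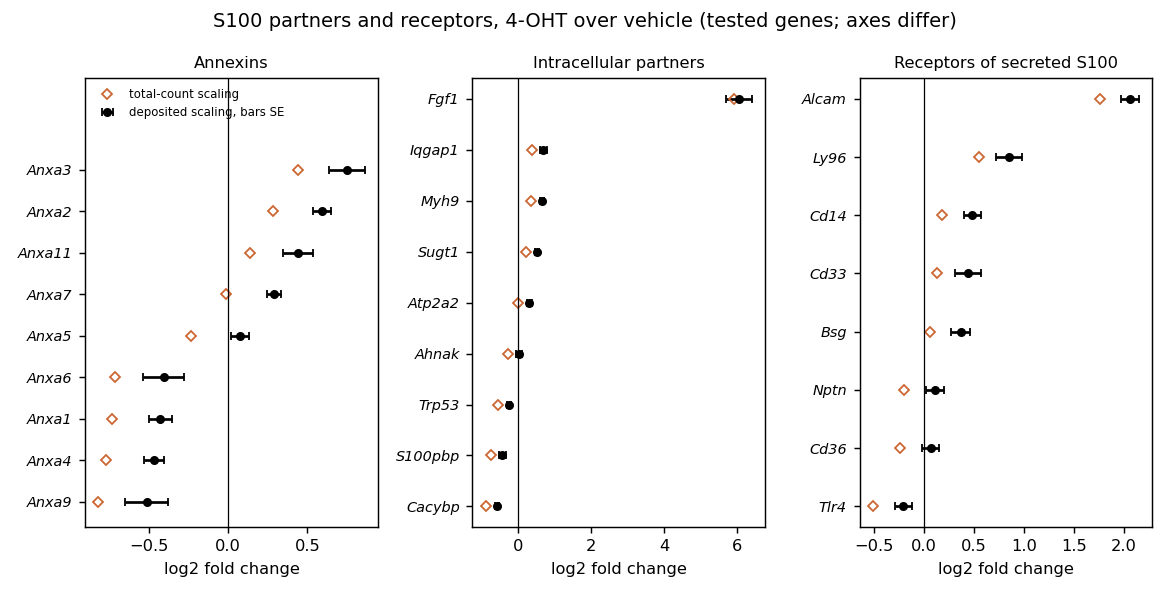
Log2 fold change of 4-OHT over vehicle for the tested annexins, intracellular partners and receptors, with SE bars on the deposited scaling (black) and as open diamonds under total-count scaling. Fgf1 and Alcam stand to the right of their panels under both scalings, and the annexins lie on either side of 0.

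Other EF-hand calcium sensors were set beside the S100 genes. Of 15, 14 were tested, of which 4 were higher, 2 lower and 8 not called, with a median of 0.01. Total-count scaling left 0 higher by limma (1 at an unadjusted p under 0.05) and 9 lower. The edgeR and DESeq2 fits, which do not scale by total reads, each called 4 higher, as did limma on the deposited values. Rcn1, a calcium binder of the endoplasmic reticulum, had the smallest log2 change, -0.72 ± 0.11 (SE). Of all tested genes 33.0% were higher and 32.5% lower, or 19.1% and 55.4% under total-count scaling. Whether the S100 genes differ from this list was not tested.

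For tested S100 genes the most similar profile over the 6 samples was sought among 8635 named genes with a mean of 100 or more reads, by Euclidean distance between log2 values centred on each gene's mean. S100a11 was nearest to Cdkn1a, the CDK inhibitor p21, at a distance of 0.0849, with log2 changes of 0.88 and 0.94. S100a4 was nearest to Atp6v0d2, a proton pump subunit, at 0.118, with -1.02 and -1.10, and S100a6 to Jrkl at 0.0646. S100a10 was nearest to Wdr1, an actin-disassembly factor, at 0.056, and S100a1 to Nsf at 0.0499. S100a8 had no close match among these genes, its nearest being Arc at 1.39. With 4 vehicle reads and 121 with 4-OHT, S100a8 itself falls short of the mean that candidates needed. Genes at its level were thus left out, and its distance is not comparable with the others.

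Library depth was 11629150 to 15943722 recovered reads. Dusp6, a phosphatase induced by ERK signalling, rose 17.8-fold with 4-OHT. All 11 macrophage markers had reads, and 10 were tested, of which 6 were higher and 4 lower, from Itgam at a log2 change of 2.21 to Adgre1 at -0.89. Total-count scaling gave 2 higher and 4 lower. Over all tested genes the shares were 33.0% higher and 32.5% lower, or 19.1% and 55.4% under total-count scaling. The summed normalized count of the 11 markers was 118080 to 121220 in vehicle and 89072 to 111312 with 4-OHT. Lyz2 made up the largest part of it, and its mean fell from 67465 in vehicle to 42932 with 4-OHT. The mean of Csf1r also fell, from 17096 to 10437. Those of Cd14 (14227 to 19998), Cd68 (9902 to 13108) and Ptprc (5227 to 8445) rose. Under total-count scaling Cd14 and Cd68 were not called (limma adjusted p = 0.0597 and 0.377), while Ptprc was still higher (limma adjusted p = 3.91e-05). The fall of the sum therefore does not speak for every marker. The part of these genes in the S100 changes was not tested. Fibroblast, epithelial and lymphocyte markers had 17, 2 and 7 reads over the 4-OHT libraries, and the mast cell markers had 31, all from Hdc.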

How the data were processed

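RNA of 6 libraries was sequenced as single-end reads. Tools listed in the submitters' processing notes are STAR 2.5.1b, RSEM, Trimmomatic 0.35, DESeq2 1.18.1 and bcl2fastq 2.20, and the builds listed are mm10 and GRCm38. How each was used, whether counting used strand and how shared reads were assigned are not given in the sources used here. The deposited signal per gene is a count divided by a size factor, since in each library 100% of positive values were whole multiples of 1 step within 1e-06. Dividing by the step gave whole reads. The step of vehicle replicate B, 0.989, is close to 1, so edgeR was also run without that library. The log2 fold changes, p-values and adjusted p-values in the deposited table are the authors', per the file headers, and are quoted only where the authors are named.

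Genes passing filterByExpr of edgeR 4.0.16 (minimum count 10) on recovered reads, 11828 in all, were tested with limma 3.58.1 (R 4.3.3, mean-variance trend) on log2(value + 1), with group as the only term, two-sided. Errors are SDs of 3 samples or model SEs. DESeq2 1.42.0 and edgeR on recovered reads were alternatives. The genes, lists and tests were chosen with earlier results of these data known. The genes named follow a rule: all S100 genes, known partners, and the largest and smallest change of each list. Called genes flanking the cluster and the nearest profile of S100 genes are also named. A few items that the rule names are not reported here. The fits were also run on simulated counts. Few genes changed there, evenly up and down, so that run does not bear on the choice of scaling.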

Additional observations from a re-analysis of the deposited data

How the results depend on the processing

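Of the 7 tested S100 genes, 6 kept their direction and their call under all 15 alternatives (the other pseudocounts, no filter, TMM and total-count scaling, edgeR, DESeq2, the replicate block, edgeR without vehicle replicate B, which was chosen after seeing the data, and each library left out). The exception was S100a1. The number of S100 genes called lower was accordingly 2 under total-count scaling and 1 to 2 with a library left out. Total-count scaling gave 2259 genes higher and 6549 lower, and the cause was not tested. Ahnak, not called at 0.02, was at -0.29 under total-count scaling, at -0.00496 by edgeR without vehicle replicate B, and between -0.0183 and 0.0501 with a library left out, and Cd36 was at -0.24 under total-count scaling. With the replicate letter as a block, 7972 genes were called against 7750, and 6 S100 genes in both. Deviations of same-lettered samples correlated at 0.11 (A), 0.04 (B) and 0.12 (C), not all over 0.1, so the letters were not taken to pair the samples, though each sample correlated best with its own letter. Depth limits S100a8, with 4 vehicle reads, and the other S100 genes, which could not be tested.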
